A study of Homo sapiens with 24 samples.

Results

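The genes described here encode 10 secreted proteins of the acute-phase and complement response: LCN2, CFB, C3, C1R, C1S, SAA1, SAA2, WFDC2, SLPI and PI3. They were chosen by symbol, and all 17 array probes annotated to those symbols were taken, out of 47231 probes on the array. Of these probes 14 were tested, and all 10 genes were among the 14077 genes tested. The genes were picked with their resistant-against-sensitive differences in these same cells in view. Those differences are therefore given as a description without p-values, and the number of genes that moved supports nothing by itself.

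Total RNA was measured on 24 Illumina beadchips from erlotinib-resistant and erlotinib-sensitive cells of 4 established cell lines of head and neck squamous carcinoma. Erlotinib is a drug that blocks the kinase of EGFR. The 8 groups were resistant and sensitive (parental) SCC-25 and resistant and sensitive Cal-27, both lines from the tongue, resistant and sensitive FaDu from the pharynx, and resistant and sensitive SQ20B from the larynx, with 3 arrays in each. Every culture, the sensitive ones included, had received 0.01% DMSO as vehicle for 48 hours before harvest. Per the labels, resistant cells had been maintained with erlotinib in their medium, and no label says whether it was still present during the DMSO exposure. The medium described for every group contained 10% fetal bovine serum, and that for SCC-25 also contained 400 ng/mL hydrocortisone, a glucocorticoid. No label says that the 3 arrays of a group came from separate cultures, and none names a second, independently derived resistant culture of any line.

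Values are log2 levels after background correction and quantile normalization within a table of 12 arrays, 1 table with SCC-25 and Cal-27 and the other with FaDu and SQ20B. Levels can be compared within a table only, and the level of a probe cannot be set against that of another probe. The lowest level at which a probe counted as detected (detection p under 0.05 against negative control beads) lay between 4.75 and 5.05, depending on the array. The arrays of a group correlated at 0.991 to 0.996 over genes, and 39.5% to 45.0% of probes were detected per array. Of the squamous epithelial markers tested, KRT5, SFN, DSG3, DSP, CDH1, EPCAM and PERP were detected on all 24 arrays, and KRT14 on 18, with no SQ20B array among them. The leukocyte genes CD3E, MPO and ELANE were detected on 0 arrays and PTPRC on 1, while CD14 and CD68 were detected on 24, CSF1R and CORO1A on 12 each and LAPTM5 on 7. The hepatocyte genes APOA1, APOB, APOH, SERPINC1 and TAT were detected on 0 arrays, TTR on 1, FABP1 on 4 and ALB on 19. In bulk RNA of this kind, fewer cells of a type and less RNA per cell cannot be told apart.

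Acute-phase proteins are secreted in large amounts during inflammation, mainly by the liver but also by epithelia at barrier surfaces. Their genes are classical targets of NF-kappa B, STAT3 and C/EBP factors downstream of interleukin-1, tumour necrosis factor and interleukin-6. Complement is a cascade of plasma proteases: C1r and C1s start the classical pathway, factor B drives the alternative pathway, and both converge on cleavage of C3. The whey acidic protein (WAP) domain family, to which WFDC2, SLPI and PI3 belong, holds small secreted proteins of mucosa and skin, several of them inhibitors of neutrophil proteases.

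LCN2, CFB, C1S and WFDC2 were higher in the resistant cells of all 4 lines, with no overlap between resistant and sensitive arrays in any line. LCN2 and CFB had the widest differences, both in FaDu: 36.1-fold for LCN2 and 21.7-fold for CFB. WFDC2 was at least 13.8-fold higher in resistant FaDu cells on background-corrected values, where the sensitive cells gave no detected signal, and its fitted log2 change there was 2.10 without background correction. The SAA genes were high in resistant Cal-27 cells, and SLPI was lower in resistant Cal-27 and higher in the other lines. PI3 was lower in resistant Cal-27 and was called higher in FaDu, a call that was lost without background correction.

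**Figure D1:**
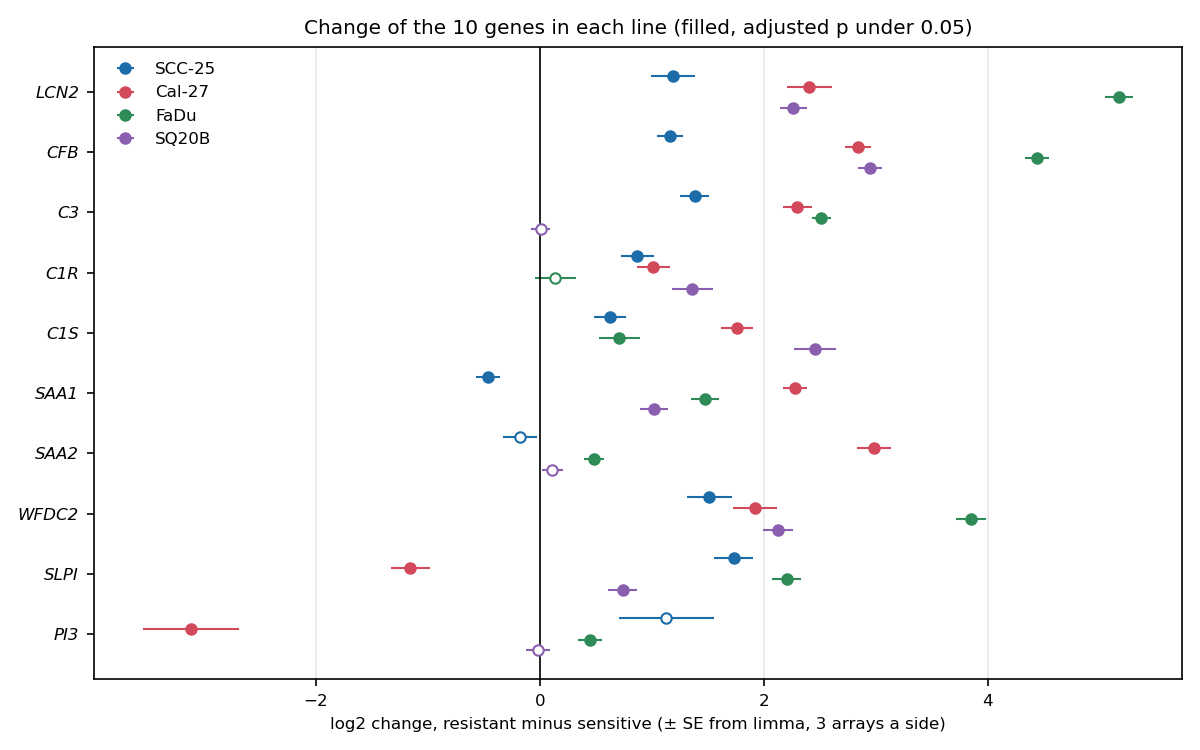
Log2 change (resistant minus sensitive, horizontal axis) of each of the 10 genes, listed down the page, in the 4 lines, on the gene's brightest probe. Bars are limma's standard error (3 arrays on each side), and filled points are called genes. LCN2, CFB, C1S and WFDC2 lie right of 0 in every line, and SLPI and PI3 lie left of 0 in Cal-27, at -1.16 and -3.11. Values with only a bound on the sensitive side are drawn at their fitted value, which is not a measured fold.

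A gene was called when its limma p-value fell under 0.05 once adjusted (Benjamini-Hochberg) for all 14077 genes. In SCC-25, 7 of the 10 genes were called higher and 1 lower, where 30.9% of all genes were called in either direction, 15.4% higher and 15.5% lower. In Cal-27, 8 were called higher and 2 lower, against a background of 33.8% called, 16.4% higher and 17.4% lower. In FaDu, 9 were called higher and 0 lower, where 40.9% of all genes were called, 20.6% higher and 20.3% lower. In SQ20B, 7 were called higher and 0 lower, where 54.3% of all genes were called, 28.4% higher and 25.8% lower. The arrays of the resistant cells lay wholly above those of the sensitive cells for 7 of the genes in SCC-25 (20.3% of all genes), 8 for Cal-27 (22.9%), 9 for FaDu (24.6%) and 7 for SQ20B (31.7%). They lay wholly below for 1 gene in SCC-25 (20.4% of all genes), 2 for Cal-27 (25.1%), 0 for FaDu (25.2%) and 0 for SQ20B (29.0%). Because the genes were chosen on this contrast, nothing is read from these counts.

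The sizes of the changes vary widely among the genes and among the lines. The median change of the 10 genes on the log2 scale was 1.15 (SCC-25), 2.10 (Cal-27), 1.84 (FaDu) and 1.19 (SQ20B). With genes undetected in a group set at their bound, or at 0 where both groups or the bound gave no fold, the medians were 1.03, 2.10, 1.66 and 0.80 in the same order of lines. The median over all 14077 genes was between -0.02 and 0.00 in each line. The central 95% of all genes ran from -0.88 to 0.92 for SCC-25 and from -0.99 to 1.14 for Cal-27, and from -0.86 to 1.35 for FaDu and from -1.29 to 1.83 for SQ20B. By the fitted value, called changes of at least 2-fold upward numbered 5, 8, 6 and 6 of the 10 genes (SCC-25, Cal-27, FaDu and SQ20B). Downward they numbered 0, 2, 0 and 0 in that order. Among those counted upward, the bound was under 2-fold for C3 in SCC-25 (1.89) and for C1R (1.81) and SAA1 (1.50) in SQ20B. Over all genes, calls of at least 2-fold by the fitted value made up 2.08%, 3.27%, 4.44% and 8.49% upward and 1.88%, 2.42%, 1.34% and 5.52% downward.

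**Figure D2:**
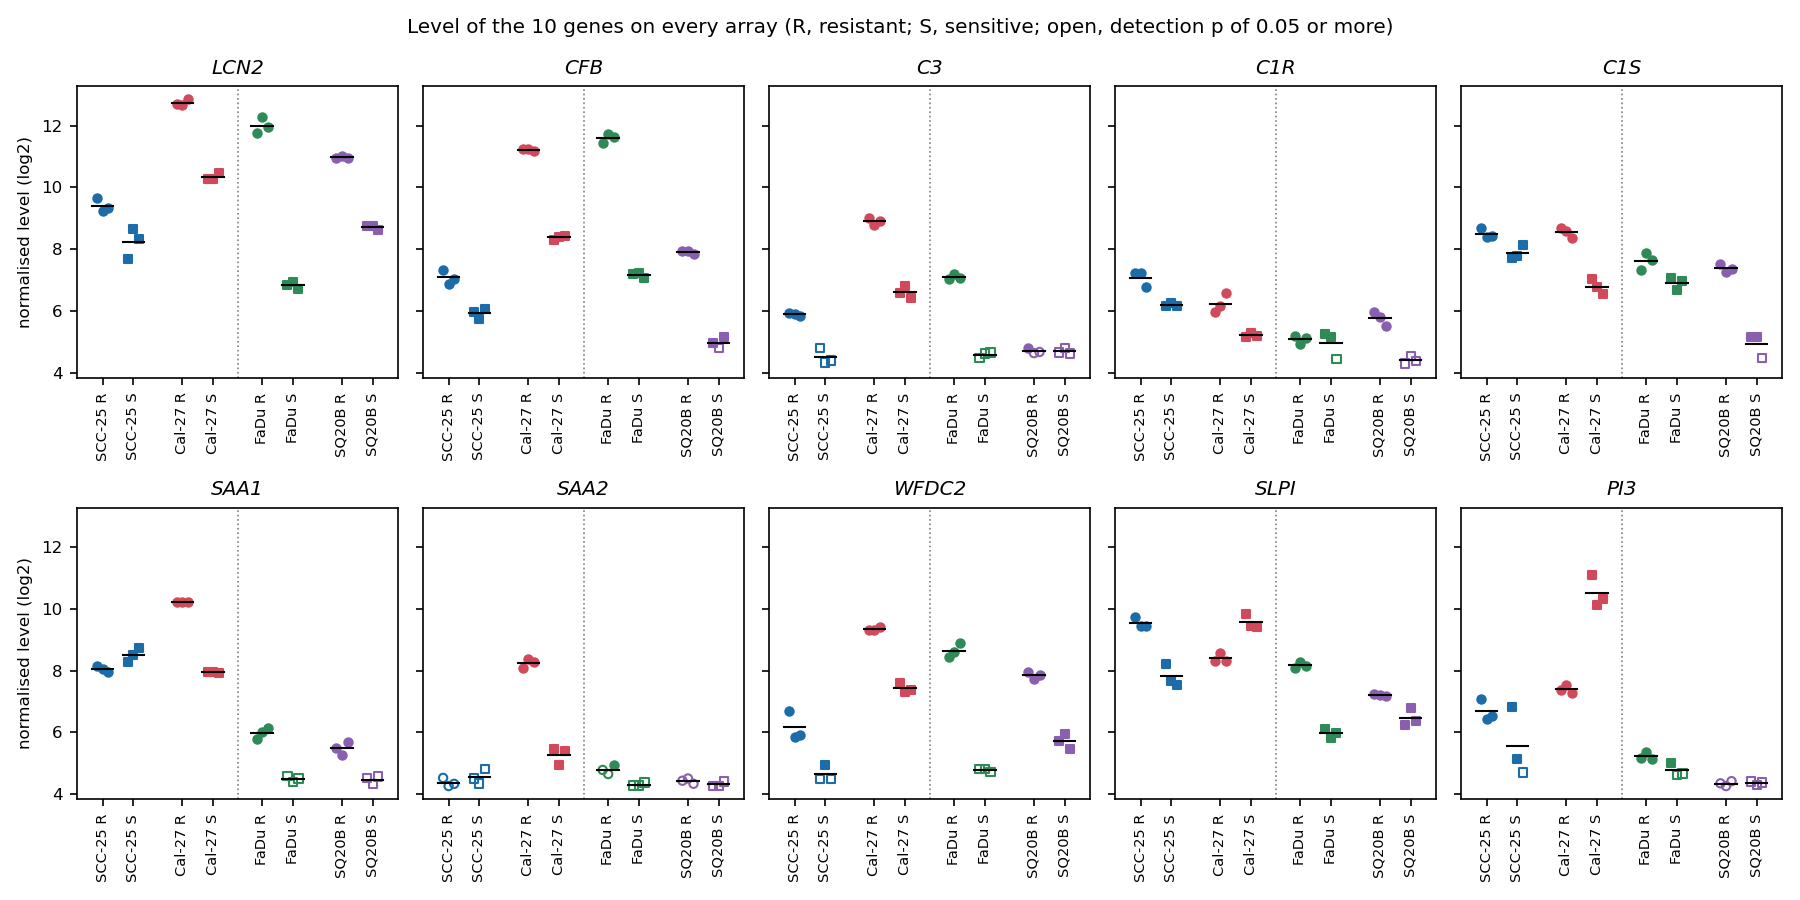
Log2 level (vertical axis, within-table scale) of each gene's brightest probe on every array, 1 panel per gene, with resistant arrays left of sensitive arrays in each line and a bar at each group's mean; open points were not detected. LCN2 arrays of resistant FaDu sit between 11.75 and 12.29, and those of sensitive FaDu between 6.71 and 6.94. Levels of SCC-25 and Cal-27 are on another scale than those of FaDu and SQ20B.

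The promoters of LCN2, CFB and WFDC2 are shown because these genes were called higher in all 4 lines, and motifs of the factors named above were searched in them. The sequences are RefSeq's, from assembly GRCh38.p14, on the gene's own strand, and run from 250 bases before to 50 bases after the annotated transcription start. LCN2 lies at chr9:128149203-128149502, CFB at chr6:31945845-31946144 and WFDC2 at chr20:45469503-45469802, all on the + strand. Capitals mark motif matches.
LCN2: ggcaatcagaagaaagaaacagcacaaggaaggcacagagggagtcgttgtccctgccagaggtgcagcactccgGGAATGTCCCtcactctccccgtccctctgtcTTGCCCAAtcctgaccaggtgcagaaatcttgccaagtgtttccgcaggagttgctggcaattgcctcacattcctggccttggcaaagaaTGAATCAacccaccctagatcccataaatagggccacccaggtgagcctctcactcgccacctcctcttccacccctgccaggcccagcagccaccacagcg
CFB: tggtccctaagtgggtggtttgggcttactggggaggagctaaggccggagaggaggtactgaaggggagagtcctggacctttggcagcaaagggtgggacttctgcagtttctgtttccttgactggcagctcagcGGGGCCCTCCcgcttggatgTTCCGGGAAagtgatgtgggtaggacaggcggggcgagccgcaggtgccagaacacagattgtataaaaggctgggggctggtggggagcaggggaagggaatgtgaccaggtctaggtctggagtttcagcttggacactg
WFDC2: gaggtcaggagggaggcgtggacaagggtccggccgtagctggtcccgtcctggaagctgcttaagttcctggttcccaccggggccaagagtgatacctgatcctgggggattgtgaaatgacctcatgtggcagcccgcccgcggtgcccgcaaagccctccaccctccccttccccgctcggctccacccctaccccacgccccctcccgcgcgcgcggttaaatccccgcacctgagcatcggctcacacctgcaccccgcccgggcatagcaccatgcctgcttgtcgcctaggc

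The motifs were kappa B by its name, TTCNNNGAA for STAT, TTGCNNAA for C/EBP and TGANTCA for AP-1, each searched on both strands. No match in these promoters overlaps another. Positions count from the start site, with negative numbers before it. The LCN2 promoter held a kappa B match at -175, a C/EBP match at -143 and an AP-1 match at -52. CFB carried a kappa B match at -112 and a STAT match at -92. WFDC2 held none of the 4. C1R, with 2 annotated start sites, held a C/EBP match at -106 of one and, at the other, C/EBP at -167 and STAT at -86. Among 35116 promoters of the same length, 11.3% held a kappa B match, 7.66% STAT, 10.5% C/EBP and 7.71% AP-1. A match of letters is a description and does not show that a factor binds there. The other members, C3, C1S, SAA1, SAA2, SLPI and PI3, were named in the search without a sequence.

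LCN2 encodes lipocalin 2, which binds bacterial iron-carrying siderophores and is also called neutrophil gelatinase-associated lipocalin. LCN2 in SCC-25 read 9.67, 9.25 and 9.32 on the resistant arrays, against 7.67, 8.65 and 8.34 on the sensitive arrays, a change of 1.19 ± 0.20 (SE, n = 3 each). LCN2 in Cal-27 read 12.72, 12.66 and 12.86 in resistant cells, against 10.26, 10.28 and 10.47 in sensitive cells, a change of 2.41 ± 0.20 (5.31-fold). Resistant arrays lay wholly above sensitive arrays in both tongue lines, and the sensitive SCC-25 arrays were the most spread. LCN2 in FaDu read 11.75, 12.29 and 11.96 in resistant cells, against 6.83, 6.94 and 6.71 in sensitive cells, a change of 5.17 ± 0.12. LCN2 in SQ20B read 10.95, 11.02 and 10.94 in resistant cells, against 8.75, 8.76 and 8.62 in sensitive cells, a change of 2.27 ± 0.12 (4.81-fold). The FaDu groups stand far apart, and resistant FaDu passed resistant SQ20B although sensitive FaDu was the lowest group of its table. Its change ranked 3 of 14077 from the highest in FaDu, 58 in Cal-27, 198 in SCC-25 and 214 in SQ20B. The probe was detected on all 24 arrays, so each of these changes is a measured one. The FaDu change was 4.38 without background correction.

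CFB encodes complement factor B, the protease precursor that joins C3b to form the alternative-pathway convertase. CFB in SCC-25 read 7.33, 6.88 and 7.04 in resistant cells, against 5.96, 5.74 and 6.05 in sensitive cells, a change of 1.16 ± 0.12 (2.24-fold). CFB in Cal-27 read 11.23, 11.26 and 11.17 in resistant cells, against 8.30, 8.40 and 8.44 in sensitive cells, a change of 2.84 ± 0.12 (7.18-fold). The groups did not overlap in either line, and even sensitive Cal-27 stood above resistant SCC-25. CFB in FaDu read 11.44, 11.74 and 11.63 in resistant cells, against 7.20, 7.23 and 7.06 in sensitive cells, a change of 4.44 ± 0.11, rank 5 of 14077 from the highest. CFB in SQ20B read 7.95, 7.96 and 7.83 in resistant cells, against 4.96, 4.80 and 5.14 in sensitive cells, a change of 2.95 ± 0.11. Sensitive SQ20B lay near the detection limit, with 2 of 3 arrays detected. Without background correction the SQ20B change was 1.48 and the FaDu change 3.80. Over 15 alternatives of processing or arrays, the SCC-25 change was lowest at 0.58 and kept its call.

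C3 is the central complement component, cleaved by all 3 activation pathways. C3 in SCC-25 read 5.94, 5.90 and 5.82 in resistant cells, all detected, against 4.79, 4.33 and 4.40 in sensitive cells, none detected, which makes it at least 1.89-fold higher in resistant cells. C3 in Cal-27 read 9.0, 8.78 and 8.91 in resistant cells, against 6.57, 6.80 and 6.43 in sensitive cells, a change of 2.30 ± 0.13 (4.92-fold). Resistant arrays lay wholly above sensitive arrays in both lines. C3 in FaDu read 7.03, 7.19 and 7.07 in resistant cells, against 4.47, 4.62 and 4.65 in sensitive cells, none detected, so it was at least 4.76-fold higher in resistant cells. C3 in SQ20B read 4.80, 4.63 and 4.67 in resistant cells, 1 of 3 detected, against 4.66, 4.80 and 4.62 in sensitive cells, 0 of 3 detected. SQ20B thus gave overlapping values at the detection limit in both states and no call. When no background was corrected, the fitted changes were 0.51 in SCC-25, 1.59 in Cal-27 and 1.05 in FaDu, those of SCC-25 and FaDu below the bounds given. With an offset of 50 they were 0.71 in SCC-25 and 1.56 in FaDu, also below those bounds. A second C3 probe was detected on 2 of the 24 arrays, both from resistant Cal-27, and was not tested.

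C1R and C1S encode the paired serine proteases of the first complement component. C1R in SCC-25 read 7.22, 7.22 and 6.77 in resistant cells, against 6.17, 6.26 and 6.17 in sensitive cells, a change of 0.87 ± 0.15. C1R in Cal-27 read 5.98, 6.15 and 6.57 in resistant cells, against 5.17, 5.29 and 5.19 in sensitive cells, a change of 1.01 ± 0.15. Groups did not overlap in these lines. C1R in FaDu read 5.20, 4.94 and 5.13 in resistant cells, against 5.24, 5.16 and 4.45 in sensitive cells, a difference of 0.14 ± 0.18 that was not called. C1R in SQ20B read 5.97, 5.81 and 5.51 in resistant cells, all detected, against 4.29, 4.53 and 4.38 in sensitive cells, none detected, at least 1.81-fold higher in resistant cells. FaDu was the line in which the C1R arrays overlapped. The Cal-27 call was lost, with a change of 0.19, when a gene's probes were averaged in place of taking the brightest, and without background correction that change was 0.38. The fitted C1R change in SQ20B was 0.49 without background correction and 0.60 with the mean of probes, both below the bound given.

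C1S was called higher in all 4 lines. C1S in SCC-25 read 8.69, 8.39 and 8.44 in resistant cells, against 7.73, 7.79 and 8.12 in sensitive cells, a change of 0.63 ± 0.14. C1S in Cal-27 read 8.69, 8.58 and 8.37 in resistant cells, against 7.03, 6.78 and 6.56 in sensitive cells, a change of 1.76 ± 0.14 (3.39-fold). In both tongue lines the lowest resistant array stood above the highest sensitive array, and the resistant groups of the 2 lines overlapped each other. C1S in FaDu read 7.33, 7.86 and 7.65 in resistant cells, against 7.06, 6.68 and 6.96 in sensitive cells, a change of 0.71 ± 0.18. C1S in SQ20B read 7.52, 7.27 and 7.36 in resistant cells, against 5.16, 5.14 and 4.48 in sensitive cells with 2 of 3 detected, a change of 2.46 ± 0.18. Resistant FaDu and resistant SQ20B reached overlapping levels from sensitive groups that did not overlap. The SQ20B change was 1.13 without background correction.

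SAA1 and SAA2 encode serum amyloid A, an apolipoprotein of high-density lipoprotein that is among the most strongly induced acute-phase proteins. The 2 genes are near-identical copies, so a probe for 1 of them may also read RNA of the other, and their separate values are uncertain. SAA1 in SCC-25 read 8.15, 8.07 and 7.95 in resistant cells, against 8.29, 8.52 and 8.75 in sensitive cells, a change of -0.47 ± 0.11. SAA1 in Cal-27 read 10.21, 10.24 and 10.22 in resistant cells, against 7.96, 7.96 and 7.91 in sensitive cells, a change of 2.28 ± 0.11 (4.85-fold). SAA1 was thus lower in resistant SCC-25 and higher in resistant Cal-27, without overlap in either line. SAA1 in FaDu read 5.78, 6.0 and 6.13 in resistant cells, against 4.58, 4.40 and 4.50 in sensitive cells, none detected, at least 2.18-fold higher in resistant cells. SAA1 in SQ20B read 5.51, 5.27 and 5.70 in resistant cells, against 4.53, 4.32 and 4.57 in sensitive cells, none detected, at least 1.50-fold higher in resistant cells. All 6 resistant arrays of these lines were detected and all 6 sensitive arrays were not. The fitted SAA1 change was 0.51 in FaDu and 0.35 in SQ20B without background correction, and 0.68 in FaDu and 0.38 in SQ20B with the mean of probes, all below the bounds given.

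SAA2 had the lowest detection of the 10 genes, on 7 of 24 arrays. SAA2 in Cal-27 read 8.10, 8.39 and 8.29 in resistant cells, against 5.47, 4.96 and 5.40 in sensitive cells, a change of 2.98 ± 0.15 (7.92-fold), rank 23 of 14077 from the highest. SAA2 in FaDu read 4.78, 4.65 and 4.96 in resistant cells, 1 of 3 detected, against 4.28, 4.28 and 4.37 in sensitive cells, none detected, and was called higher with no fold given. Cal-27 was the line with detected SAA2 on every array. SAA2 was detected on 0 of 6 arrays in SCC-25 and on 0 of 6 in SQ20B, and neither line gave a call. Without background correction the Cal-27 change was 1.61.

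Genes with several probes did not always give the same picture. The 3 SAA1 probes were all called higher in Cal-27, with changes of 2.28, 2.28 and 1.95. In SCC-25 the brightest SAA1 probe was called lower at -0.47, and the other 2 gave -0.15 and -0.29 without a call. In FaDu the 2 dimmer SAA1 probes gave 0.19, not called, and 0.39, called higher, each detected on 1 resistant array and no sensitive array. In SQ20B both were undetected and not called. For C1R, the brightest probe gave 1.01 in Cal-27 where 2 dimmer probes gave -0.08 and -0.36, neither called. In SCC-25 a dimmer C1R probe was called higher at 0.67, and the other tested one gave -0.14 without a call. In SQ20B these 2 dimmer C1R probes gave 0.39 and 0.05, neither called. Another C1R probe was detected on 1 of 24 arrays and a second C1S probe on 0, and neither was tested.

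**Figure D3:**
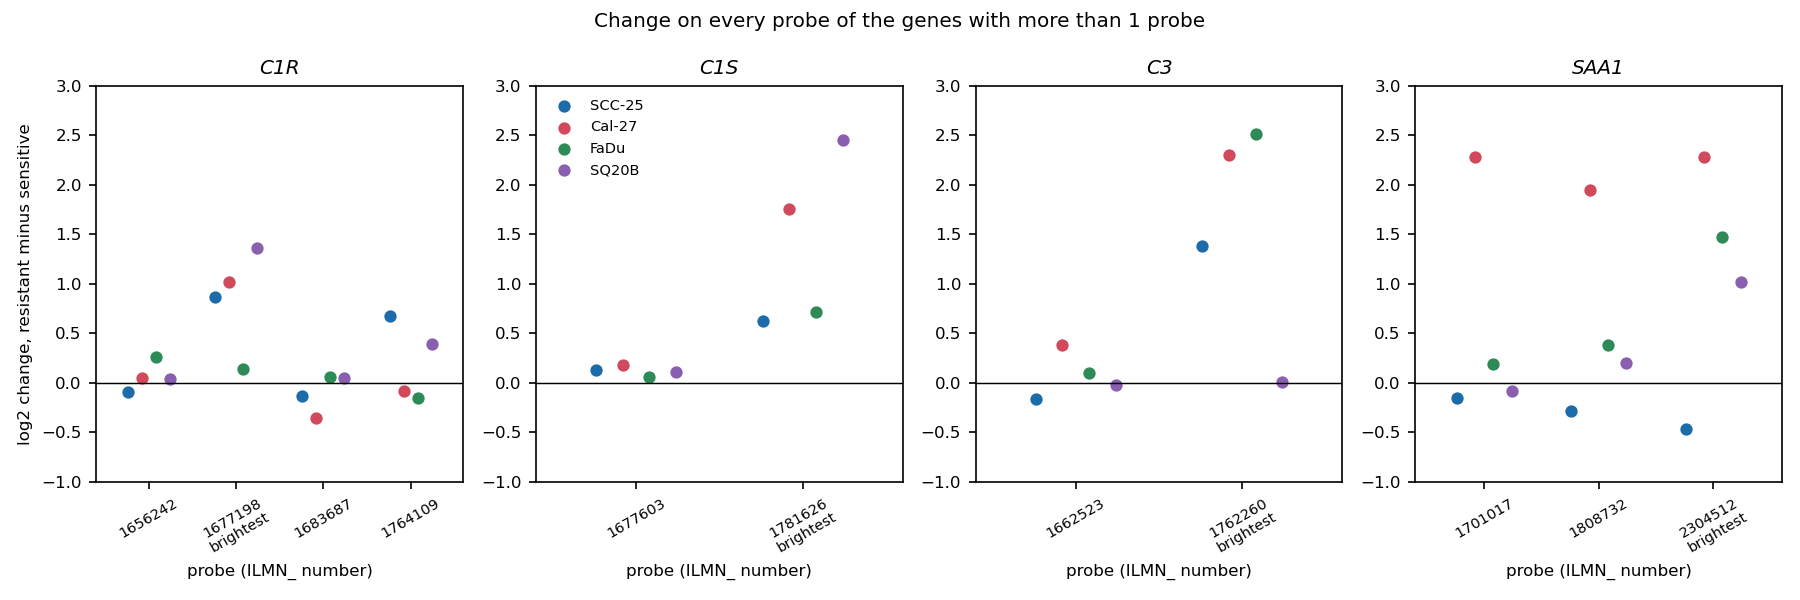
Log2 change (resistant minus sensitive, vertical axis) on every annotated probe of the 4 genes with more than 1 probe, by line. The 3 SAA1 probes lie close together in Cal-27, between 1.95 and 2.28, and the C1R probes do not, between -0.36 and 1.01. Probes below detection in a group are drawn at fitted or mean differences, which are not measured folds.

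WFDC2 encodes a secreted WAP-domain protein of the airway and reproductive tract that is used as a serum marker of ovarian carcinoma. WFDC2 in SCC-25 read 6.71, 5.86 and 5.92 in resistant cells, against 4.49, 4.96 and 4.49 in sensitive cells with 1 of 3 detected, a change of 1.52 ± 0.20. WFDC2 in Cal-27 read 9.33, 9.32 and 9.40 in resistant cells, against 7.61, 7.31 and 7.36 in sensitive cells, a change of 1.92 ± 0.20 (3.79-fold). Neither line showed overlap, and the Cal-27 arrays of each state were tightly grouped. WFDC2 in FaDu read 8.43, 8.60 and 8.89 in resistant cells, against 4.82, 4.82 and 4.72 in sensitive cells, none detected, at least 13.8-fold higher in resistant cells. WFDC2 in SQ20B read 7.96, 7.72 and 7.85 in resistant cells, against 5.73, 5.95 and 5.48 in sensitive cells, a change of 2.13 ± 0.14 (4.37-fold). As for LCN2, FaDu was below SQ20B in the sensitive state and above it in the resistant state. Without background correction the fitted changes were 0.56 in SCC-25, 2.10 in FaDu, which is below the bound given, and 1.18 in SQ20B. The FaDu change was also below that bound with an offset of 50, at 2.81.

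SLPI encodes secretory leukocyte protease inhibitor, an inhibitor of neutrophil elastase made by mucosal epithelia. SLPI in SCC-25 read 9.74, 9.43 and 9.46 in resistant cells, against 8.23, 7.68 and 7.52 in sensitive cells, a change of 1.73 ± 0.18 (3.32-fold). SLPI in Cal-27 read 8.32, 8.57 and 8.33 in resistant cells, against 9.84, 9.44 and 9.40 in sensitive cells, a change of -1.16 ± 0.18. The tongue lines moved oppositely, with no overlap within either, and resistant SCC-25 overlapped sensitive Cal-27. SLPI in FaDu read 8.10, 8.28 and 8.17 in resistant cells, against 6.12, 5.83 and 5.98 in sensitive cells, a change of 2.21 ± 0.13 (4.62-fold). SLPI in SQ20B read 7.26, 7.21 and 7.18 in resistant cells, against 6.26, 6.81 and 6.36 in sensitive cells, a change of 0.74 ± 0.13. Both lines of that table were higher in the resistant state without overlap. Left uncorrected for background, the FaDu change was 1.33.

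PI3 encodes elafin, an inhibitor of elastase and proteinase 3 that keratinocytes make during inflammation. PI3 in Cal-27 read 7.39, 7.54 and 7.28 in resistant cells, against 11.08, 10.14 and 10.33 in sensitive cells, a change of -3.11 ± 0.43, rank 21 of 14077 from the lowest. PI3 in SCC-25 read 7.10, 6.43 and 6.54 in resistant cells, against 6.84, 5.14 and 4.70 in sensitive cells with 2 of 3 detected, a difference of 1.13 ± 0.43 that was not called. The sensitive SCC-25 arrays were spread more widely than any other group of this gene, and without sensitive replicate 1 the difference was 1.77 and was called. PI3 in FaDu read 5.17, 5.36 and 5.14 in resistant cells, against 5.01, 4.63 and 4.67 in sensitive cells with 1 of 3 detected, a change of 0.45 ± 0.11 that was 0.14 and not called without background correction. In SQ20B it was detected on 0 arrays in either state. Cal-27 was thus the line in which PI3 was called lower, from a sensitive level far above those of SCC-25. The summed linear level of squamous epithelial markers, of which 8 of the 11 listed were tested, was also lower in resistant Cal-27. It was 17140 to 18300 in resistant Cal-27 against 28660 to 31860 in sensitive Cal-27. Such a sum is weighted toward the brightest markers and does not show how single markers moved. The part of these markers in the PI3 and SLPI differences was not tested. In SCC-25 the summed level of these markers was 23680 to 27790 in resistant cells, against 32470 to 35350 in sensitive cells. It was also lower without overlap in FaDu, where SLPI was higher, at 15550 to 15950 in resistant cells against 17520 to 19110 in sensitive cells. In SQ20B the groups overlapped, at 18110 to 18640 in resistant cells and 17620 to 18750 in sensitive cells.

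The summed level of fibroblast and endothelial markers also differed with the state of the cells. All 9 listed were tested. Detected on all 3 arrays were 5 of them in each SCC-25 group, 3 in each Cal-27 group and 2 in each FaDu group. In SQ20B these were 4 in resistant and 2 in sensitive cells. A linear sum is weighted toward the brightest markers, and changes of single markers are not given here. The summed linear level was 6295 to 8389 in resistant SCC-25 against 1032 to 1079 in sensitive SCC-25. It was 1220 to 1255 in resistant Cal-27 against 322 to 385.6 in sensitive Cal-27, 537.6 to 575.4 in resistant FaDu against 287.1 to 324.2 in sensitive FaDu, and 1237 to 1274 in resistant SQ20B against 459.9 to 488 in sensitive SQ20B. C1R and C1S are also made by fibroblasts, and the part of these markers in the members' differences was not tested.

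The sensitive cells differed in the level from which these changes were measured. In sensitive SCC-25 the levels lay below those of sensitive Cal-27, without overlap, for LCN2 (-2.12), CFB (-2.46), WFDC2 (-2.78), SLPI (-1.75) and PI3 (-4.96), where 1 of 3 sensitive SCC-25 arrays was detected for WFDC2 and 2 of 3 for PI3. C3 and SAA2 were also lower in sensitive SCC-25, where 0 of 3 arrays detected either, so no difference is given for them. The levels lay above for C1R (0.98), C1S (1.09) and SAA1 (0.57), again without overlap. In sensitive FaDu the levels lay below those of sensitive SQ20B for LCN2 (-1.88) and SLPI (-0.50), and above for CFB (2.20) and C1S (1.97), with 2 of 3 sensitive SQ20B arrays detected for both. WFDC2 was also lower in sensitive FaDu, undetected there, and PI3 higher in sensitive FaDu than in sensitive SQ20B, undetected in the SQ20B group, and no difference is given for these. C3, C1R, SAA1 and SAA2 overlapped between these lines. For LCN2, WFDC2 and SLPI the order was turned in the resistant state, where FaDu stood above SQ20B by 1.03, 0.79 and 0.97. These values are differences in log2 level between lines of a table and were not tested.

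The order of the 4 groups within a table can be read for each gene. LCN2, CFB, C3 and WFDC2 shared the order resistant Cal-27, sensitive Cal-27, resistant SCC-25, sensitive SCC-25, with no overlap between neighbours. LCN2, WFDC2 and SLPI shared the order resistant FaDu, resistant SQ20B, sensitive SQ20B, sensitive FaDu, again without overlap. CFB had resistant FaDu, resistant SQ20B, sensitive FaDu and sensitive SQ20B. For C3 and SAA2, resistant FaDu stood above 3 groups that overlapped each other. For C1R, resistant SQ20B stood above the other groups, and sensitive FaDu overlapped both resistant FaDu and sensitive SQ20B, which did not overlap each other.

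Several members sit in gene clusters, and the genes beside them were compared as well. The order of genes was taken from RefSeq's GRCh38.p14 gene table. These neighbours are not members, and limma's adjusted p-values over all 14077 genes are given for them. Those named were chosen after their values were seen, so the p-values are a description. A neighbour or line left unmentioned may hold a call too. SAA4, a constitutive serum amyloid A gene next to SAA2, rose by 2.77 ± 0.11 in Cal-27 (adjusted p = 2.78e-09). In resistant FaDu it was at least 1.09-fold higher (adjusted p = 0.000665), and in SCC-25 it was detected on 0 arrays of either state. SAA4 was also called higher in SQ20B (adjusted p = 0.031), where 1 resistant and 0 sensitive arrays were detected. SAA2-SAA4, a gene listed in the same block, was not tested, and whether the SAA4 probe also reads its RNA was not checked. HPS5, on the other side of SAA1 and needed for lysosome-related organelles, was called in FaDu, at 0.47 ± 0.09 (adjusted p = 0.00106), and not in Cal-27, at 0.28 ± 0.13 (adjusted p = 0.106).

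C1RL, a C1R-like protease gene beside C1R, rose by 1.07 ± 0.15 in Cal-27 (adjusted p = 0.000114), 0.79 ± 0.13 in FaDu (adjusted p = 0.000276) and 1.37 ± 0.13 in SQ20B (adjusted p = 1.09e-06). In SCC-25 it gave 0.29 ± 0.15 (adjusted p = 0.162). EMG1 and LPCAT3, on the C1S side, went the other way in SQ20B: EMG1, a ribosome biogenesis gene, fell by 1.30 ± 0.08 (adjusted p = 3.76e-08) and LPCAT3, a phospholipid acyltransferase, fell by 0.69 ± 0.08 (adjusted p = 7.79e-06). The 3 C1 protease genes thus rose in SQ20B between EMG1 and LPCAT3, which fell, and RBP5, which was detected on 1 resistant and 0 sensitive arrays and was not called.

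Within the chromosome 20 block of 16 genes that holds PI3, SLPI and WFDC2, 9 genes were tested, 6 of them no members. SDC4, a heparan sulphate proteoglycan gene between SLPI and WFDC2, rose by 1.04 ± 0.11 in Cal-27 (adjusted p = 1.19e-05), 0.74 ± 0.11 in FaDu (adjusted p = 0.000199) and 1.15 ± 0.11 in SQ20B (adjusted p = 1.99e-06). In SCC-25 it gave -0.13 ± 0.11 (adjusted p = 0.431). WFDC5, another WAP gene, and SPINT3 were not called in any line. In Cal-27 the block thus held genes called lower (PI3, SLPI) and genes called higher (SDC4, SYS1, DBNDD2, WFDC2).

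C2, the classical-pathway homologue of CFB that lies beside it, was at least 1.34-fold higher in resistant Cal-27 cells, where 2 of 3 resistant arrays were detected (adjusted p = 0.00892), and was not called in SCC-25, FaDu or SQ20B. CD70, which encodes a tumour necrosis factor family ligand near C3, fell by 2.02 ± 0.13 in FaDu, where 1 of 3 resistant arrays was detected (adjusted p = 8.53e-08), 1.37 ± 0.13 in SQ20B (adjusted p = 1.11e-06) and 0.87 ± 0.17 in SCC-25 (adjusted p = 0.00167). C3 and CD70 were called in opposite directions in SCC-25 and FaDu. Beside LCN2, BBLN was called in Cal-27, at 0.80 ± 0.15 (adjusted p = 0.00119), and not in FaDu, at -0.11 ± 0.20 (adjusted p = 0.695).

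**Figure D4:**
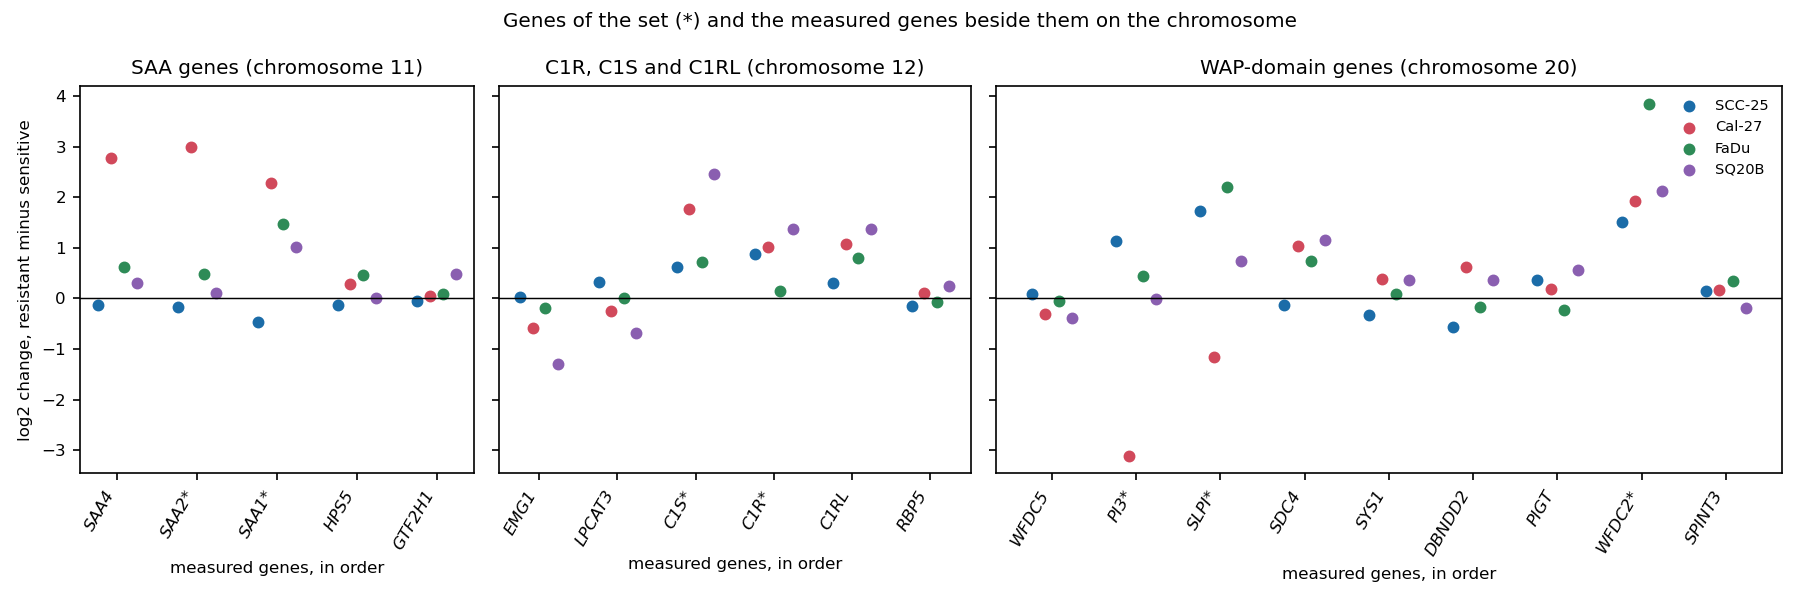
Log2 change (resistant minus sensitive, vertical axis) of members (marked with an asterisk) and of the measured genes beside them, in chromosomal order without distances, by line. SAA4 stands with SAA2 and SAA1 in Cal-27, at 2.77, and EMG1 lies at -1.30 in SQ20B beside the raised C1 genes. Genes undetected in a group are drawn at their fitted value.

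Other genes of these pathways were taken from 5 lists made by function: complement, acute phase, epithelial defence, upstream cytokines and factors, and receptors or partners of the secreted products. The lists hold 150 entries, none of them a member, and 91 were tested. Called in either direction were 34 in SCC-25 (37.4% against 30.9% of all genes), 39 in Cal-27 (42.9% against 33.8%), 32 in FaDu (35.2% against 40.9%) and 44 in SQ20B (48.4% against 54.3%). In either direction together, these shares lie near the background, above it in the tongue lines and below it in FaDu and SQ20B. By direction, 19 were called higher and 15 lower in SCC-25, 32 and 7 in Cal-27, 24 and 8 in FaDu, and 36 and 8 in SQ20B. Over all genes the shares higher and lower were 15.4% and 15.5% in SCC-25 and 16.4% and 17.4% in Cal-27. They were 20.6% and 20.3% in FaDu and 28.4% and 25.8% in SQ20B. These are also the background of the counts per list below, and the differences were not tested.

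Of 19 complement genes tested, 2 were called higher and 2 lower in SCC-25, with 4 and 1 for Cal-27, 5 and 1 for FaDu, and 8 and 0 for SQ20B. Their median fitted change was 0.03, 0.09, 0.14 and 0.23 in that order of lines, and 0 in each line once undetected genes were set at their bound or at 0. CD55, a membrane inhibitor of the convertases, rose by 1.65 ± 0.24 in Cal-27 (adjusted p = 0.000153) and 2.64 ± 0.17 in SQ20B (adjusted p = 4.16e-08). CD59, which blocks the membrane attack complex, fell by 0.75 ± 0.11 in Cal-27 (adjusted p = 0.000159) and by 0.38 ± 0.11 in SCC-25 (adjusted p = 0.0183). C5, the component after C3, was called higher in all 4 lines. It rose by 0.84 ± 0.10 in SCC-25 (adjusted p = 4.97e-05) and 1.94 ± 0.11 in SQ20B (adjusted p = 1.59e-08). In Cal-27 it rose by 0.86 ± 0.10 (adjusted p = 2.53e-05), with 1 of 3 sensitive arrays detected. In resistant FaDu C5 was at least 3.26-fold higher (adjusted p = 5.73e-08). VTN, which encodes vitronectin, an inhibitor of the terminal pathway, was at least 5.39-fold higher in resistant SQ20B (adjusted p = 6.94e-12). It passed the detection filter through that group alone, so this call is a description. C4BPB, a chain of the C4b-binding protein, was at least 1.54-fold higher in resistant SCC-25 (adjusted p = 7.34e-05). Leaving VTN aside, regulators (CD55, CD59, C4BPB) as well as a component (C5) of the cascade were among the called genes.

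Of 12 acute-phase genes tested, 2 were called higher and 1 lower in SCC-25, with 4 and 1 for Cal-27, 3 and 0 for FaDu, and 2 and 0 for SQ20B. HAMP, which encodes the iron-regulating hormone hepcidin, was at least 4.48-fold higher in resistant SCC-25 (adjusted p = 1.07e-05). PTX3, a long pentraxin, was at least 4.97-fold higher in resistant Cal-27 (adjusted p = 9.13e-10). CP, the copper-carrying plasma ferroxidase ceruloplasmin, rose by 2.18 ± 0.17 in FaDu (adjusted p = 6.89e-07). F3, tissue factor, fell by 1.12 ± 0.10 in SCC-25 (adjusted p = 4.86e-06) and by 0.99 ± 0.10 in Cal-27 (adjusted p = 7.24e-06) and rose by 0.79 ± 0.08 in SQ20B (adjusted p = 1.67e-06). HAMP was detected in resistant SCC-25 alone and PTX3 in resistant Cal-27 alone, as were VTN and CAMP in resistant SQ20B and MMP9 in sensitive SCC-25. These 5 genes passed the detection filter only through that group, so their calls there are a description and nothing is read from the lines without a call.

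Of 18 epithelial defence genes tested, 4 were called higher and 2 lower in SCC-25, with 5 and 1 for Cal-27, 5 and 0 for FaDu, and 10 and 2 for SQ20B. MUC1, a membrane mucin, rose by 2.20 ± 0.25 in SCC-25 (adjusted p = 2.85e-05), 1.17 ± 0.25 in Cal-27 (adjusted p = 0.00263), 2.88 ± 0.09 in FaDu (adjusted p = 1.64e-10) and 1.15 ± 0.09 in SQ20B (adjusted p = 1.74e-07). DEFB1, a beta-defensin, rose by 2.19 ± 0.16 in SCC-25 (adjusted p = 6.77e-07). BPIFB1, a secreted airway lipid-binding protein, was at least 6.79-fold higher in resistant FaDu (adjusted p = 2.93e-10). CAMP, the cathelicidin precursor, was at least 4.07-fold higher in resistant SQ20B (adjusted p = 1.89e-09), the only group through which it passed the detection filter. RNASE7, an antimicrobial ribonuclease of skin, fell by 2.01 ± 0.12 in SCC-25 (adjusted p = 1.13e-07) and was at least 2.11-fold higher in resistant SQ20B (adjusted p = 1.03e-06). CST6, a cystatin protease inhibitor, rose by 1.87 ± 0.16 in Cal-27 (adjusted p = 1.52e-06). MUC1 and CST6 were called higher in all 4 lines, and RNASE7 was called in opposite directions.

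Of 32 upstream cytokines and factors tested, 9 were called higher and 7 lower in SCC-25, with 16 and 4 for Cal-27, 8 and 6 for FaDu, and 13 and 4 for SQ20B. IL6, a main inducer of acute-phase genes, rose by 1.24 ± 0.17 in SCC-25 (adjusted p = 0.000167), 2.30 ± 0.17 in Cal-27 (adjusted p = 5.59e-07), 2.49 ± 0.14 in FaDu (adjusted p = 4.35e-08) and 2.74 ± 0.14 in SQ20B (adjusted p = 7.28e-09). IL1A, an interleukin-1 cytokine, rose by 3.08 ± 0.17 in Cal-27 (adjusted p = 2.36e-08) and 3.20 ± 0.14 in SQ20B (adjusted p = 1.22e-09). TNF rose by 3.65 ± 0.12 in Cal-27 (adjusted p = 6.02e-10). IL1RN, the interleukin-1 receptor antagonist, fell by 1.31 ± 0.16 in SCC-25 (adjusted p = 4.76e-05) and by 1.74 ± 0.19 in FaDu (adjusted p = 1.24e-05). NFKBIZ, an inducible nuclear cofactor of NF-kappa B, rose by 1.62 ± 0.10 in Cal-27 (adjusted p = 1.27e-07) and 1.12 ± 0.15 in FaDu (adjusted p = 5.74e-05). CEBPD, a C/EBP factor of the acute-phase response, rose by 0.86 ± 0.10 in SCC-25 (adjusted p = 4.97e-05) and 1.04 ± 0.10 in Cal-27 (adjusted p = 6.18e-06). It was not called in FaDu. The gene with the largest called rise was IL6 in SCC-25 and FaDu, TNF in Cal-27 and IL1A in SQ20B.

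Of 10 receptors and partners tested, 2 were called higher and 3 lower in SCC-25, with 3 and 0 for Cal-27, 3 and 1 for FaDu, and 3 and 2 for SQ20B. SLC22A17, a receptor for lipocalin 2, rose by 0.69 ± 0.18 in SCC-25 (adjusted p = 0.0121). MMP9, the protease that lipocalin 2 binds, was at least 6.33-fold lower in resistant SCC-25 (adjusted p = 3.86e-07). It passed the detection filter through sensitive SCC-25 alone. CD36, a scavenger receptor that binds serum amyloid A, rose by 3.00 ± 0.09 in SCC-25 (adjusted p = 3.67e-10). TGM2, a transglutaminase that crosslinks elafin, rose by 2.54 ± 0.19 in Cal-27 (adjusted p = 4.50e-07) and 3.19 ± 0.07 in FaDu (adjusted p = 2.90e-11) and fell by 2.24 ± 0.07 in SQ20B (adjusted p = 9.22e-11). PLSCR1, a scramblase bound by SLPI, rose by 1.66 ± 0.10 in SQ20B (adjusted p = 1.86e-08).

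**Figure D5:**
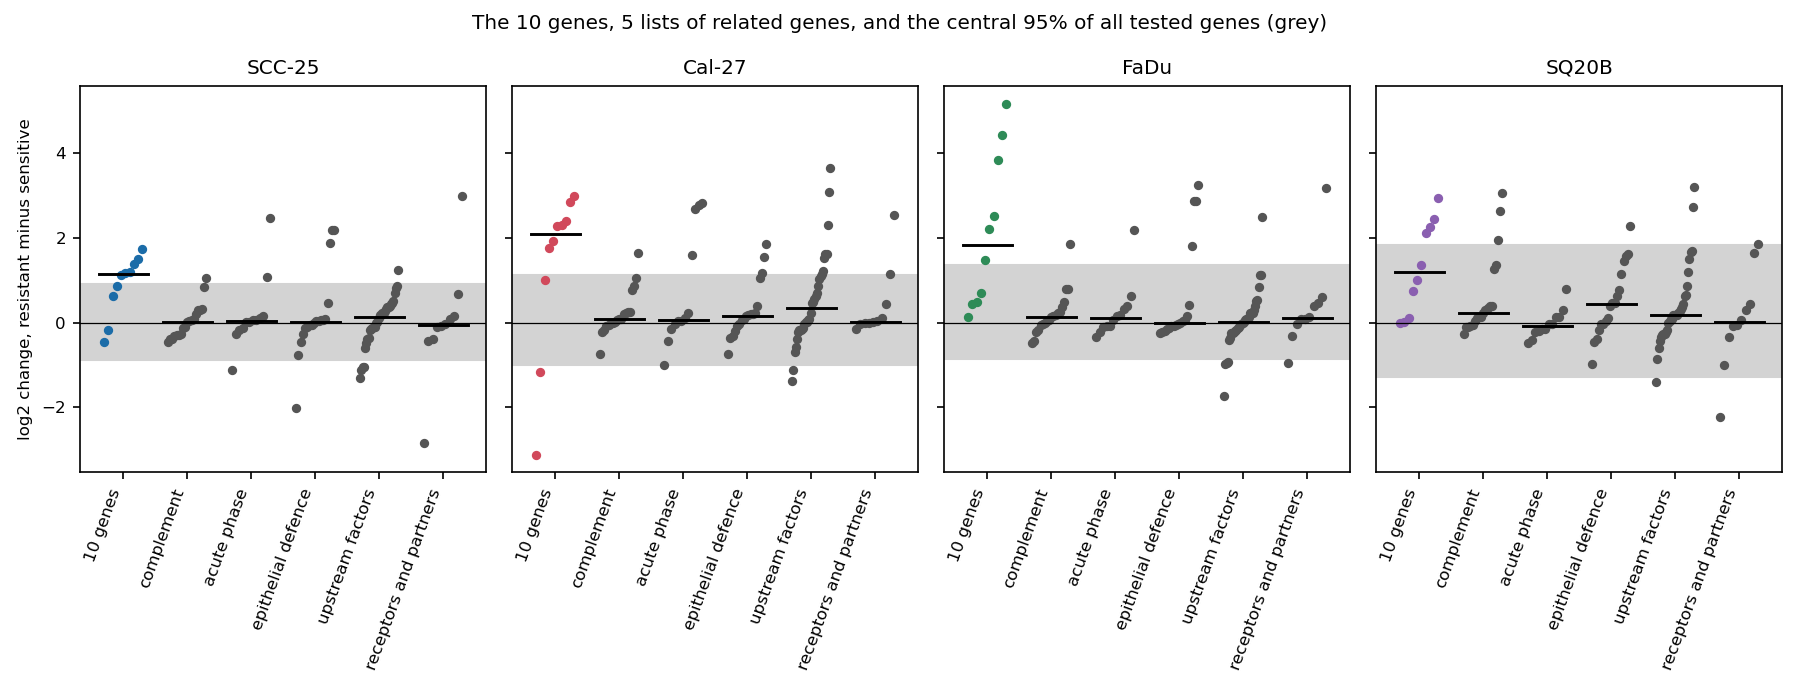
Log2 change (resistant minus sensitive, vertical axis) of the 10 genes and of each tested gene in the 5 lists, 1 panel per line, with a bar at each median and grey shading over the central 95% of all tested genes. The medians of the 10 genes lie between 1.15 and 2.10, and the medians of the lists, over the values drawn, between -0.09 and 0.43. Genes undetected in a group are drawn at their fitted value.

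Patterns over the 24 arrays were compared after each gene's mean within its table was subtracted. The arrays fall into 8 groups of 3 and share their normalization, so each correlation mostly reflects 8 group levels and is given without a p-value. LCN2 and WFDC2 were the members most alike (r = 0.975), followed by CFB and C3 (r = 0.902). C1R and PI3 were the least alike (r = -0.552). Among genes that are no members, those closest to LCN2 were GSDMB (r = 0.948), KLHL5 (r = 0.947) and ERBB3 (r = 0.939), and those closest to WFDC2 were ERBB3 (r = 0.972), PTTG1IP (r = 0.955) and TMPRSS2 (r = 0.950). CFB was closest to TNFRSF14 (r = 0.971), HEXD (r = 0.959) and VASN (r = 0.952), and C3 to RCCD1 (r = 0.969), CST6 (r = 0.952) and HLA-DMA (r = 0.941).

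SAA2 was closest to its neighbour SAA4 (r = 0.988), then to UNC5A (r = 0.985) and MT1M (r = 0.983), and SAA1 to ZNF319 (r = 0.965), PCK2 (r = 0.929) and VLDLR-AS1 (r = 0.915). C1S was closest to C1RL (r = 0.951), then to BRWD1 (r = 0.946) and BTN3A2 (r = 0.943), and C1R to TLCD5 (r = 0.896), CAMLG (r = 0.894) and FCGRT (r = 0.893). SLPI had the weakest closest genes, MAPK8IP3 (r = 0.852), SNX2 (r = 0.813) and KCNK2 (r = 0.792). PI3 was closest to RTL3 (r = 0.913), ANKRD13C (r = 0.906) and S100A8 (r = 0.897). The closest gene to SAA2 was thus the one beside it, and the closest to C1S was C1RL, which lies on the far side of C1R.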

How the data were processed

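Per the labels' protocols, biotinylated cRNA from total RNA was measured on 24 Illumina arrays. The authors deposited, per probe, a mean bead intensity on a linear scale without normalization, a detection p-value and a bead count, in 2 tables of 12 arrays. The sensitive FaDu and SQ20B columns are headed with the line and DMSO alone. They were taken as sensitive because the resistant columns carry a resistance label. Each also ranked the probes as the authors' processed values of a sample titled sensitive did (rank correlation 1). This assignment sets the direction of every FaDu and SQ20B change. The submitters' processing notes name GenomeStudio without a version. Processed intensity values that the authors deposited in another table served as an alternative, and how they were made is not stated.

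The neqc function of limma 3.58.1 (R 4.3.3) corrected the background with a normal-exponential model, using the detection p-values and an offset of 16, then quantile-normalized the arrays of each table and took log2. Of 47231 probes, 30113 had 1 gene symbol, 8 had several and 17110 are unnamed here. Entrez identifiers were checked against RefSeq for 30074 probes and changed 0 symbols. A probe was tested when detected (p under 0.05) on at least 3 of 24 arrays, and the brightest such probe stood for its gene. For 3934 of the 14077 genes more than 1 probe was tested.

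Resistant and sensitive cells were compared with lmFit and eBayes, with 1 model per table of 4 groups and 8 residual degrees of freedom. Changes are log2, resistant minus sensitive, ± limma's standard error with 3 arrays a side. P-values were adjusted by Benjamini-Hochberg over all tested genes. They measure the spread between these arrays, which may be technical. Where no array of a group detected a probe, the change is a bound, written "at least": in the brighter group the mean level, and in the dimmer one, per array, the dim probe's level or the lowest detected level, whichever was higher. The number of arrays limits the precision of every value.

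The members and gene lists were chosen with earlier results of these data known, the lists by function. All members are named. From each list, up to 2 called genes per line and direction with the largest change and no overlap of arrays qualified for naming. Values of a named gene in some other lines were added after they were seen, so a line left unmentioned may hold a call too. For each member the 3 genes with the highest correlation are named, and the genes beside members on the chromosome were chosen after the values were seen. Alternatives were other background corrections, scalings, filters, probe rules and arrays left out. The procedure was tested on simulated data. Same-numbered arrays of resistant and sensitive cells did not deviate together over all genes (correlations from -0.07 to 0.07). These correlations cannot exclude pairing. No label says that the numbers pair cultures, and the main model did not pair them. No coordinates of the array's probes are printed, since the files name no genome build.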

Additional observations from a re-analysis of the deposited data

Results flagged for a closer look

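Members and listed genes called in opposite directions in different lines, with no overlap of arrays in either, are given here as log2 changes, resistant minus sensitive. The difference between lines was not tested for any of them. Where a group was undetected, the value is a fitted one and no measured fold. SAA1 was 2.28 in Cal-27 and, in the other table, 1.47 (FaDu) and 1.02 (SQ20B), against -0.47 in SCC-25. The sensitive arrays of FaDu and SQ20B were undetected for SAA1. SLPI was 1.73 in SCC-25 and, in the other table, 2.21 (FaDu) and 0.74 (SQ20B), against -1.16 in Cal-27. PI3 was 0.45 in FaDu, with 1 of 3 sensitive arrays detected, against -3.11 in Cal-27.

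Among cytokines and factors, IL1A was 3.08 in Cal-27 and 3.20 in SQ20B but -1.03 in SCC-25. IL1B was 1.53 in Cal-27 and 1.69 in SQ20B but -1.11 in SCC-25 and -0.96 in FaDu. IL1R1 was 0.83 in SCC-25 and -1.39 in SQ20B. NFKBIA, an inhibitor of NF-kappa B, was 1.14 in Cal-27 and 0.84 in FaDu but -0.85 in SQ20B. OSMR, a receptor of oncostatin M, was 0.87 in Cal-27 and -0.97 in FaDu. CEBPA was 0.53 in FaDu and 0.62 in SQ20B but -1.38 in Cal-27. NFKB1 was 0.50 in Cal-27 and 0.29 in FaDu but -0.43 in SQ20B. FKBP5 was 0.69 in SCC-25 but -0.36 in FaDu and -0.61 in SQ20B. SOCS3 was 0.52 in SCC-25, with no sensitive array detected, but -0.57 in Cal-27. IL17C was 1.23 in Cal-27 but -0.36 in SCC-25, with 0 resistant arrays and 1 sensitive array detected there. IL17RC was 0.44 in SQ20B, with no sensitive array detected, but -0.42 in FaDu.

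Among complement, acute-phase and partner genes, CD59 was 0.49 in FaDu and 0.31 in SQ20B but -0.38 in SCC-25 and -0.75 in Cal-27. F3 was 0.39 in FaDu and 0.79 in SQ20B but -1.12 in SCC-25 and -0.99 in Cal-27. TGM2 was 2.54 in Cal-27 and 3.19 in FaDu but -2.24 in SQ20B. GRN, which encodes progranulin, a protein bound by SLPI, was 0.45 (Cal-27), 0.46 (FaDu) and 1.86 (SQ20B) but -0.42 in SCC-25. Among epithelial defence genes, RNASE7 was 1.80 in FaDu and 1.63 in SQ20B but -2.01 in SCC-25. CST3 was 0.46 in SCC-25 and 0.48 in SQ20B but -0.73 in Cal-27. PIGR was 1.05 in Cal-27 and -0.44 in SQ20B, and SPINT1 was 0.47 in SQ20B and -0.77 in SCC-25.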

How the results depend on the processing

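Of 360 member changes recomputed under 9 other settings, 357 kept their result, 2 lost the call and 1 gained it. Of 240 recomputed with 1 array left out, 239 kept their result and 1 gained a call. A kept result is a call in the same direction, or no call in both fits whatever the sign. With 1 array left out, uncalled changes turned sign for C1R in FaDu (lowest -0.11) and, in SQ20B, for C3 (lowest -0.04) and PI3 (highest 0.03). The FaDu change of PI3 was 0.14 without background correction and the Cal-27 change of C1R was 0.19 with the mean of probes, both no longer called. The SCC-25 difference of PI3 became a call without sensitive replicate 1 (1.77) and with the replicate block (1.13). The replicate block called 9, 10, 9 and 7 members in SCC-25, Cal-27, FaDu and SQ20B, and 4165, 4569, 5664 and 7570 of all genes; it changed no other call of a member. Leaving out arrays gave 8 to 9, 10, 9 and 7 members called in the same order of lines. Median scaling moved the share of higher among called genes by more than 10 percentage points in SCC-25, to 37.2% against 49.8%. With an offset of 50 the fitted change was 0.71 for C3 and 0.85 for WFDC2 in SCC-25, 2.22 for SAA2 in Cal-27, 1.56 for C3, 0.77 for SAA1 and 2.81 for WFDC2 in FaDu, and 2.07 for CFB, 0.68 for C1R and 1.63 for C1S in SQ20B. With the authors' processed values it was 2.39 for SAA2 in Cal-27, 1.90 for C3 and 3.13 for WFDC2 in FaDu, and 2.33 for CFB in SQ20B. A slide block was not run, since the headers name no slides. Signal near the control beads limits CFB, C3, C1R, C1S, SAA1, SAA2, WFDC2 and PI3, which had groups with undetected arrays.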
